A study of Mus musculus with 30 samples.

Results

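The known stem cell ageing genes are 7 genes, Aldh1a1, Plscr2, Selp, Clu, Nupr1, Ehd3 and Sbspon, which were chosen by name because their RNA has been reported to rise in blood stem cells of old mice. They were measured here in multipotent progenitors, the cells that blood stem cells give rise to, and all 7 were among the 24421 genes of the tables. RNA of sorted mouse bone marrow progenitors was sequenced in 30 libraries that formed 10 groups of 3, to ask what Bcl11a, a transcriptional repressor of blood development, does inside MPP3 cells (progenitors biased to myeloid lineages) and MPP4 cells (progenitors biased to lymphoid lineages). The WTiMOS groups were MPP4 T2 and MPP4 T1 cells of 24 and of 3 months, and MPP3 T2 and MPP3 T1 cells of 24 and of 3 months. The KOiMOS groups were MPP3 T2 and MPP3 T1 cells of 3 months, and KOiMOS MPP3 cells of 24 months were not analysed here. The labels do not say what T1 and T2 stand for, which cells carry which form of Bcl11a, or whether replicates came from separate animals, so the p-values below measure no more than how far these libraries spread, which may be technical.

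Blood stem cells of old mice grow in number and shift their output towards myeloid cells and platelets, and a group of genes that recurs in studies of these cells is used as a signature of their age. The 7 genes have little in common in what they do. Aldh1a1 and Plscr2 encode an enzyme and a membrane protein, Nupr1 and Clu encode proteins of the stress response, Selp encodes an adhesion receptor, and Ehd3 and Sbspon encode a membrane trafficking protein and a protein with matrix-type domains. On GRCm38 with GENCODE vM21 all 7 are protein coding: Aldh1a1 lies at chr19:20492715-20643465 on the plus strand, Plscr2 at chr9:92275602-92297752 on the plus strand, Nupr1 at chr7:126623249-126630861 on the minus strand, and Clu at chr14:65968483-65981547 on the plus strand. Selp lies at chr1:164115264-164150026 on the plus strand, Ehd3 at chr17:73804134-73832094 on the plus strand, and Sbspon at chr1:15853862-15892722 on the minus strand.

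Values were TPM (a unit scaled for gene length and to a common total per library), so levels can be set side by side between genes, while the number of reads behind them is unknown. Each library had 10519 to 12008 genes at 1 TPM or more, and the lowest and highest Pearson's r across genes between replicates were 0.988 and 0.998. Each table held 1 age, 1 cell type and 1 genotype label, so that age, and genotype, cannot be told apart from table. Bcl11a itself averaged 68.2 TPM in T2 and 70.3 TPM in T1 cells of the libraries labelled KOiMOS, against 78.5 TPM in T2 and 45.2 TPM in T1 cells of WTiMOS MPP3 at 3 months (n = 3 each), so its RNA did not mark those libraries. The MPP4 marker list (Flt3, Dntt and 5 others) summed to between 584 and 1265 TPM in the MPP4 groups and to between 90.9 and 299 TPM in the MPP3 groups. The summed MPP3 markers (Mpo, Elane, Ctsg and Prtn3) of MPP3 T2 cells of 24 months, 1777 TPM, lay below the 1911 TPM of MPP4 T1 cells of 24 months. Ctsg led both sums, at 718 and 1248 TPM, and Prtn3 had 485.5 and 548 TPM. Mpo (281 and 63.15 TPM) and Elane (293 and 52.0 TPM) were higher in those MPP3 cells. The sum of 4 Y-linked genes was 63.4 TPM in 24-month and 43.6 TPM in 3-month MPP3 T2 libraries, 0 in 24-month and 73.2 TPM in 3-month MPP3 T1 libraries, 162 TPM in 24-month and 111 TPM in 3-month MPP4 T2 libraries, and 0.106 TPM in 24-month and 0 in 3-month MPP4 T1 libraries. Cells of the compared ages thus differed in sex in MPP3 T1 cells at least in part, and the part of this in the results was not tested.

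Aldh1a1 and Plscr2 rose in all 4 age comparisons, and the remaining members each had a pattern of their own. Both averaged between 5.31 and 42.7 TPM in the 24-month groups and under 1.5 TPM in the 3-month groups of WTiMOS, in both cell types and in both T2 and T1 cells. Selp moved one way in MPP3 and the opposite way in MPP4: it was lower at 24 months in MPP3, where its 3-month level was high, and higher in MPP4, where its 3-month level was low. Nupr1 rose in 3 of the 4 comparisons, and Clu, Ehd3 and Sbspon averaged at most 8.35 TPM and moved in no shared direction.

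**Figure D1:**
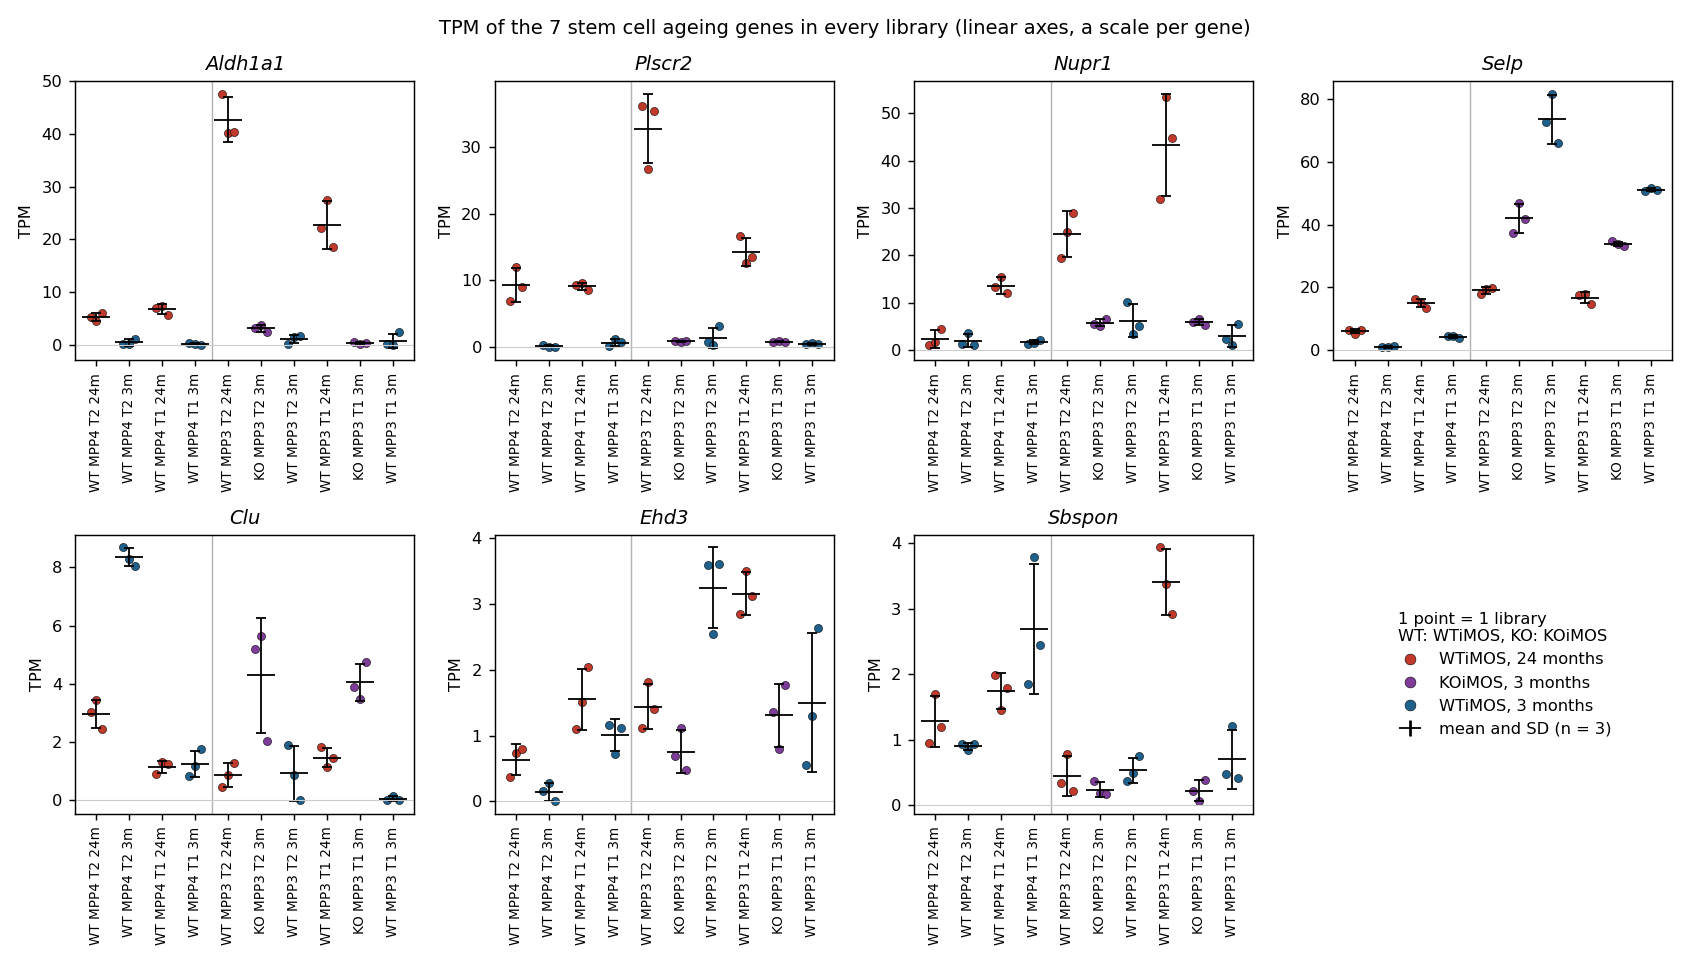
TPM of each of the 7 genes in every library, by group, with 1 panel a gene and a linear axis of its own in each; points are libraries (red, WTiMOS of 24 months; purple, KOiMOS of 3 months; blue, WTiMOS of 3 months) and bars are the mean ± SD of 3 libraries. Aldh1a1 and Plscr2 stand above all 3-month libraries in all 4 WTiMOS groups of 24 months, while the highest Selp values are those of MPP3 cells of 3 months.

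Aldh1a1 encodes a cytosolic aldehyde dehydrogenase that makes retinoic acid and clears reactive aldehydes. In MPP3 T2 cells it had 47.6, 40.2 and 40.3 TPM at 24 months, against 0.251, 1.57 and 1.70 TPM at 3 months. In MPP3 T1 cells it had 22.1, 27.5 and 18.6 TPM at 24 months, against 0.150, 0 and 2.38 TPM at 3 months. No library of 24 months came near the 3-month range in either, and the 24-month level of T2 cells lay above that of T1 cells. In MPP4 T2 cells it had 5.39, 4.49 and 6.04 TPM at 24 months, against 0.148, 0.119 and 1.20 TPM at 3 months. In MPP4 T1 cells it had 7.09, 7.48 and 5.76 TPM at 24 months, against 0.441, 0.270 and 0 TPM at 3 months. The ages were apart in MPP4 too, at a lower 24-month level than in MPP3.

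Age changes are given as differences of log2(TPM + 1), 24 months minus 3 months, from limma with Benjamini-Hochberg adjustment over all genes tested, and a gene is called at an adjusted p under 0.05. The scale understates the change of genes near 0. For Aldh1a1 the change was 4.41 ± 0.279 in MPP3 T2 cells (SE; adjusted p = 1.54e-08), 3.90 ± 0.402 in MPP3 T1 cells (adjusted p = 6.73e-06), 2.15 ± 0.256 in MPP4 T2 cells (adjusted p = 3.93e-06) and 2.66 ± 0.187 in MPP4 T1 cells (adjusted p = 1.50e-06). In MPP4 T1 cells it reached the 1 TPM in 3 libraries needed for a test only through its 24-month libraries. That call adds nothing to the values. On the linear scale the mean was 36.4 and 27.0 times higher at 24 months in MPP3 T2 and T1 cells, and 10.9 and 28.6 times higher in MPP4 T2 and T1 cells, over 3-month means that rest on values of at most 2.38 TPM. Among all genes tested it had the 11th and the 20th largest increase in MPP3 T2 and T1 cells, and the 166th and the 12th in MPP4 T2 and T1 cells. Aldh1a7, a near-identical copy of Aldh1a1 that could share its reads, had at most 1.79 TPM in any group mean.

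The sequence before the Aldh1a1 start is shown because its RNA set the ages apart in all 4 comparisons. It is 1 of 2 starts that RefSeq lists, on the plus strand of GRCm38.p6 at chr19:20601718-20601967, the 250 bases before that start, whose last 7 bases lie within an untranslated exon of GENCODE. Capitals mark a CCAAT box (CCAAT) that begins 72 bases before the start and a GATA motif (AGATAA) that begins 32 bases before it.
Aldh1a1: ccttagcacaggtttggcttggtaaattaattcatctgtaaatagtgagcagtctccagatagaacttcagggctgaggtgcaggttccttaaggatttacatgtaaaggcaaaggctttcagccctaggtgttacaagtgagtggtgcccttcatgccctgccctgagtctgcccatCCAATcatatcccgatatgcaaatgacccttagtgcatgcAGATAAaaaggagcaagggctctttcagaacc
Motifs were searched on both strands, and of 32817 such windows 33.8% held CCAAT and 9.99% held AGATAA, so that either match is common.

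Plscr2 encodes a phospholipid scramblase, a family of membrane proteins that move lipids between the leaflets of a membrane. Levels in MPP3 T2 cells were 36.2, 26.8 and 35.4 TPM at 24 months, against 0.729, 0.245 and 3.03 TPM at 3 months. Levels in MPP3 T1 cells were 16.6, 12.5 and 13.4 TPM at 24 months, against 0.316, 0.577 and 0.316 TPM at 3 months. As for Aldh1a1, the 24-month T2 cells were highest of all groups. Levels in MPP4 T2 cells were 6.86, 11.9 and 8.91 TPM at 24 months, against 0.253, 0 and 0 TPM at 3 months. Levels in MPP4 T1 cells were 9.30, 9.48 and 8.5 TPM at 24 months, against 0.0483, 1.08 and 0.648 TPM at 3 months. The ages did not overlap in any of the 4 comparisons.

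The log2 change of Plscr2 was 4.03 ± 0.364 in MPP3 T2 cells (SE; adjusted p = 9.71e-07), 3.43 ± 0.193 in MPP3 T1 cells (adjusted p = 5.76e-09), 3.22 ± 0.219 in MPP4 T2 cells (adjusted p = 2.14e-08) and 2.72 ± 0.225 in MPP4 T1 cells (adjusted p = 5.36e-06). In MPP3 T1 and MPP4 T2 cells Plscr2 reached the level needed for a test only through its 24-month libraries. Those 2 calls add nothing to the values. It was the 23rd, 40th, 10th and 10th largest increase among all genes tested in those comparisons. Plscr2 thus kept a place among the 40 largest increases in each comparison, while Aldh1a1 did not in MPP4 T2 cells.

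Across the 10 groups both genes had the same top places. Mean Aldh1a1 was 42.7 ± 4.26 TPM in MPP3 T2 and 22.7 ± 4.49 TPM in MPP3 T1 cells of 24 months, followed by 6.78 ± 0.900 TPM in MPP4 T1 and 5.31 ± 0.780 TPM in MPP4 T2 cells of 24 months (SD, n = 3 each), and of these neighbours only the MPP4 pair overlapped. KOiMOS MPP3 T2 cells came next with 3.15 ± 0.720 TPM, and the 5 lowest groups, all of 3 months, overlapped from neighbour to neighbour between 1.17 and 0.237 TPM. Mean Plscr2 was 32.8 ± 5.23 TPM in MPP3 T2 and 14.2 ± 2.15 TPM in MPP3 T1 cells of 24 months, with the MPP4 groups of 24 months at 9.24 ± 2.55 TPM (T2) and 9.10 ± 0.523 TPM (T1), which overlapped. The 6 groups of 3 months all averaged between 0.0843 and 1.33 TPM, and each of these genes was listed at 0 in 2 libraries.

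Nupr1 encodes a small nuclear protein induced by cell stress. The MPP3 T2 libraries had 19.3, 24.9 and 29.1 TPM at 24 months, against 10.04, 3.30 and 5.09 TPM at 3 months. The MPP3 T1 libraries had 31.9, 53.4 and 44.7 TPM at 24 months, against 2.29, 1.02 and 5.49 TPM at 3 months. The ages were apart in both, and here the T1 cells had the higher 24-month level. The MPP4 T2 libraries had 0.962, 1.68 and 4.54 TPM at 24 months, against 1.21, 3.5 and 1.15 TPM at 3 months, and the ages overlapped. The MPP4 T1 libraries had 13.2, 15.5 and 12.1 TPM at 24 months, against 1.26, 1.57 and 2.14 TPM at 3 months, and the ages were apart. The log2 change was 1.92 ± 0.304 in MPP3 T2 cells (SE; adjusted p = 0.000102), 3.63 ± 0.382 in MPP3 T1 cells (adjusted p = 1.60e-05) and 2.47 ± 0.162 in MPP4 T1 cells (adjusted p = 9.61e-07). The MPP4 T2 change was 0.15 ± 0.410 (adjusted p = 0.745), with a 95% interval of -0.78 to 1.08, and it was -0.27 without replicate 3 of 24 months.

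Clu encodes clusterin, an extracellular chaperone. Its highest level was not in old cells: MPP4 T2 cells had 3.02, 3.43 and 2.46 TPM at 24 months, against 8.68, 8.30 and 8.06 TPM at 3 months, with no overlap and a log2 change of -1.24 ± 0.169 (SE; adjusted p = 1.35e-05). In MPP4 T1 cells it had 0.902, 1.30 and 1.24 TPM at 24 months, against 0.839, 1.17 and 1.75 TPM at 3 months. These overlapped, with a change of -0.05 (95% interval -0.49 to 0.38; adjusted p = 0.827). In MPP3 T2 cells it had 0.463, 0.861 and 1.28 TPM at 24 months, against 1.90, 0.856 and 0 TPM at 3 months, overlapping and under the level at which a gene was tested. In MPP3 T1 cells it had 1.82, 1.14 and 1.44 TPM at 24 months, against 0, 0.147 and 0 TPM at 3 months, a rise of 1.23 ± 0.217 on the log2 scale (adjusted p = 0.000205) at a level near 1 TPM. It reached the level needed for that test only through its 24-month libraries, so the call adds nothing to the values.

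Selp encodes P-selectin, an adhesion receptor stored in platelets and endothelial cells that binds white blood cells. It was the only member with over 30 TPM in young cells. MPP3 T2 cells had 17.8, 19.6 and 20.0 TPM at 24 months, against 72.9, 81.8 and 66.1 TPM at 3 months. MPP3 T1 cells had 17.7, 17.8 and 14.7 TPM at 24 months, against 50.9, 51.8 and 51.0 TPM at 3 months. Every MPP3 library of 24 months lay below every MPP3 library of 3 months. MPP4 T2 cells had 6.31, 5.24 and 6.41 TPM at 24 months, against 1.04, 0.861 and 1.44 TPM at 3 months. MPP4 T1 cells had 16.4, 15.2 and 13.5 TPM at 24 months, against 4.65, 4.54 and 3.86 TPM at 3 months. In MPP4 the order was turned round, with all 24-month libraries above those of 3 months.

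The log2 change of Selp was -1.89 ± 0.144 in MPP3 T2 cells (SE; adjusted p = 7.94e-08) and -1.56 ± 0.117 in MPP3 T1 cells (adjusted p = 7.98e-08). It was 1.73 ± 0.190 in MPP4 T2 cells (adjusted p = 1.80e-06) and 1.58 ± 0.130 in MPP4 T1 cells (adjusted p = 5.11e-06). The mean at 24 months was 0.260 and 0.327 times that at 3 months in MPP3 T2 and T1 cells, and 5.38 and 3.46 times in MPP4 T2 and T1 cells. MPP3 and MPP4 cells of 24 months thus lay much closer to each other than those of 3 months: in T1 cells the means were 15.1 TPM in MPP4 and 16.7 TPM in MPP3 at 24 months, with overlapping libraries, and 4.35 TPM in MPP4 and 51.2 TPM in MPP3 at 3 months. That pair was the single overlap among the 9 neighbouring pairs in the order of the 10 group means, which ran between 73.6 ± 7.90 TPM in MPP3 T2 cells and 1.11 ± 0.296 TPM in MPP4 T2 cells, both of 3 months (SD, n = 3 each).

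The 250 bases before the Selp start are shown as those of the member whose age changes had opposite signs. They lie at chr1:164115014-164115263 on the plus strand of GRCm38.p6 in RefSeq, and capitals mark a CCAAT box on the minus strand (read as ATTGG on the strand printed) that begins 227 bases before the start and an AP-1 motif (TGANTCA) that begins 139 bases before it.
Selp: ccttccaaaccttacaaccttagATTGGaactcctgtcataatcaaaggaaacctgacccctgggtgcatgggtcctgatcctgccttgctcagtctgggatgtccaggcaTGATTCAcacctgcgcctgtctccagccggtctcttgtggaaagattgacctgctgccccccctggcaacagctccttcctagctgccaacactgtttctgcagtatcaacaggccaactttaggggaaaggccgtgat
TGANTCA was held by 6.75% of all such windows, and AGATAA, which the Aldh1a1 window holds, was not in these letters.

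Platelets and endothelial cells carry Selp, so their marker lists are given beside it. In bulk RNA, fewer cells of a type and less RNA per cell cannot be told apart. The 8 platelet markers summed to 90 to 104 TPM at 24 months and 104 to 119.5 TPM at 3 months in MPP3 T2 libraries, and to 33.4 to 39.7 TPM at 24 months and 33.3 to 50.5 TPM at 3 months in MPP3 T1 libraries, with Gp6 listed at 0 in all. In MPP4 they summed to 29.3 to 34.7 TPM at 24 months and 28.0 to 40.2 TPM at 3 months in T2 libraries, and to 7.09 to 8.70 TPM at 24 months and 21.0 to 24.7 TPM at 3 months in T1 libraries. Thus in MPP4 T1 cells Selp was higher at 24 months while the platelet sum was lower. In MPP3 the sum joins genes that moved opposite ways. Itga2b, an integrin chain of platelets and megakaryocytes, averaged 14.1 TPM at 24 months and 75.1 TPM at 3 months in MPP3 T2 cells (-2.36, adjusted p = 6.68e-08) and 3.01 TPM at 24 months and 22.3 TPM at 3 months in MPP3 T1 cells (-2.54, adjusted p = 8.06e-09), so it fell there with Selp. Pf4, a chemokine of platelet granules, averaged 73.7 TPM at 24 months and 6.22 TPM at 3 months in MPP3 T2 cells (3.52, adjusted p = 6.53e-06) and 29.7 TPM at 24 months and 4.23 TPM at 3 months in MPP3 T1 cells (2.65, adjusted p = 2.16e-06), against the direction of Selp. The 7 endothelial markers averaged 22.9 TPM at 24 months and 37.7 TPM at 3 months in MPP3 T2 libraries, and 2.09 TPM at 24 months and 12.4 TPM at 3 months in MPP3 T1 libraries. In MPP4 they averaged 33.5 TPM at 24 months and 44.4 TPM at 3 months in T2 libraries, and 5.57 TPM at 24 months and 22.1 TPM at 3 months in T1 libraries, in each case led by Emcn, which stem and progenitor cells also express. Cdh5, which encodes the cadherin of endothelial junctions, had at most 0.143 TPM in any group mean. The endothelial sum was lower at 24 months also in MPP4, where Selp was higher, and the part of platelets, megakaryocytes and endothelial cells in the fall of Selp in MPP3 was not tested.

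Ehd3 encodes a protein of membrane recycling, and its values were between 0 and 3.61 TPM. The MPP3 T2 libraries had 1.11, 1.81 and 1.40 TPM at 24 months, against 3.60, 2.55 and 3.61 TPM at 3 months. The MPP3 T1 libraries had 2.85, 3.51 and 3.13 TPM at 24 months, against 0.556, 1.30 and 2.64 TPM at 3 months. The libraries did not overlap in either, and the signs were opposite, with a log2 change of -0.80 ± 0.260 in MPP3 T2 cells (SE; adjusted p = 0.0134) and 0.82 ± 0.281 in MPP3 T1 cells (adjusted p = 0.0174). Neither call was firm: in T2 cells the adjusted p was 0.0557 without replicate 1 of 24 months and 0.136 after rescaling, and with GC content and length corrected the change was -0.08. In T1 cells the adjusted p was 0.0740 without replicate 1 of 3 months, 0.0606 without replicate 2 of 24 months and 0.0521 with no filter. The MPP4 T1 libraries had 1.10, 1.51 and 2.04 TPM at 24 months, against 1.17, 0.725 and 1.12 TPM at 3 months. These overlapped, with a change of 0.34 (95% interval -0.09 to 0.77; adjusted p = 0.149). In MPP4 T2 cells all 6 libraries were under 1 TPM, with a mean of 0.635 ± 0.235 TPM at 24 months and 0.144 ± 0.141 TPM at 3 months (SD, n = 3 each), and the gene was not tested.

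Sbspon encodes a small protein with somatomedin B and thrombospondin domains, of which little is known in blood cells. Its MPP3 T1 values were 3.93, 3.37 and 2.92 TPM at 24 months, against 0.472, 1.22 and 0.418 TPM at 3 months, with no overlap and a log2 change of 1.40 ± 0.232 (SE; adjusted p = 0.000122). Its MPP3 T2 values were 0.336, 0.786 and 0.220 TPM at 24 months, against 0.372, 0.491 and 0.746 TPM at 3 months, overlapping and not tested. Its MPP4 T1 values were 1.99, 1.45 and 1.79 TPM at 24 months, against 1.86, 3.79 and 2.44 TPM at 3 months. These overlapped, with a change of -0.40 (95% interval -0.85 to 0.05; adjusted p = 0.105), which was called without replicate 1 of 3 months (-0.57, adjusted p = 0.0373). In MPP4 T2 cells the means were 1.28 ± 0.382 TPM at 24 months and 0.901 ± 0.0517 TPM at 3 months (SD, n = 3 each), not tested.

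The counts of members have to be read against how many genes of the whole tables were called. In MPP3 T2 cells 5 members were tested, of which 3 were higher and 2 lower at 24 months, where 24.3% of 11709 genes tested were called higher and 50.4% lower. In MPP3 T1 cells all 7 were tested, of which 6 were higher and 1 lower, where 26.3% of 11659 genes were called higher and 54.3% lower. Without replicate 2 of 24 months 4 of 5 members tested were called there. In MPP4 T2 cells 5 were tested, of which 3 were higher, 1 lower and 1 not called, where 72.6% of 11275 genes were called higher and 8.33% lower. In MPP4 T1 cells 7 were tested, of which 4 were higher and 3 not called, where 7.18% of 11334 genes were called higher and 55.4% lower. With most of the transcriptome called, the size and direction of a member's change say more than the call. Aldh1a1 and Plscr2 in most of these comparisons, and Clu and Sbspon in MPP3 T1 cells, reached the 1 TPM in 3 libraries needed for a test only, or with 1 library besides, through their 24-month libraries. Such a gene had to differ to be tested, so that the counts of members are only a description.

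The median change of all genes tested was itself away from 0, at -0.51 and -0.55 in MPP3 T2 and T1 cells and at 0.79 and -0.37 in MPP4 T2 and T1 cells. Dividing each library by its median ratio to all libraries removes that shift. Called genes were then 4127 higher and 4413 lower in MPP3 T2, 4610 and 4805 in MPP3 T1, 2349 and 3090 in MPP4 T2 and 2164 and 2030 in MPP4 T1 cells. Without rescaling they were 2847 higher and 5898 lower in MPP3 T2, 3066 and 6335 in MPP3 T1, 8189 and 939 in MPP4 T2 and 814 and 6281 in MPP4 T1 cells. On the rescaled values Aldh1a1 changed by 4.74, 4.30, 1.77 and 2.92 and Plscr2 by 4.34, 3.82, 3.02 and 3.00 in MPP3 T2, MPP3 T1, MPP4 T2 and MPP4 T1 cells. Selp changed by -1.37 and -0.98 in MPP3 T2 and T1 cells and by 1.12 and 1.92 in MPP4 T2 and T1 cells. The opposite signs of Selp and the rises of Aldh1a1 and Plscr2 were thus present on both scales, and all of these values were called. The rescaled change of Nupr1 in MPP4 T2 cells was -0.51, of the opposite sign to 0.15 before.

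**Figure D2:**
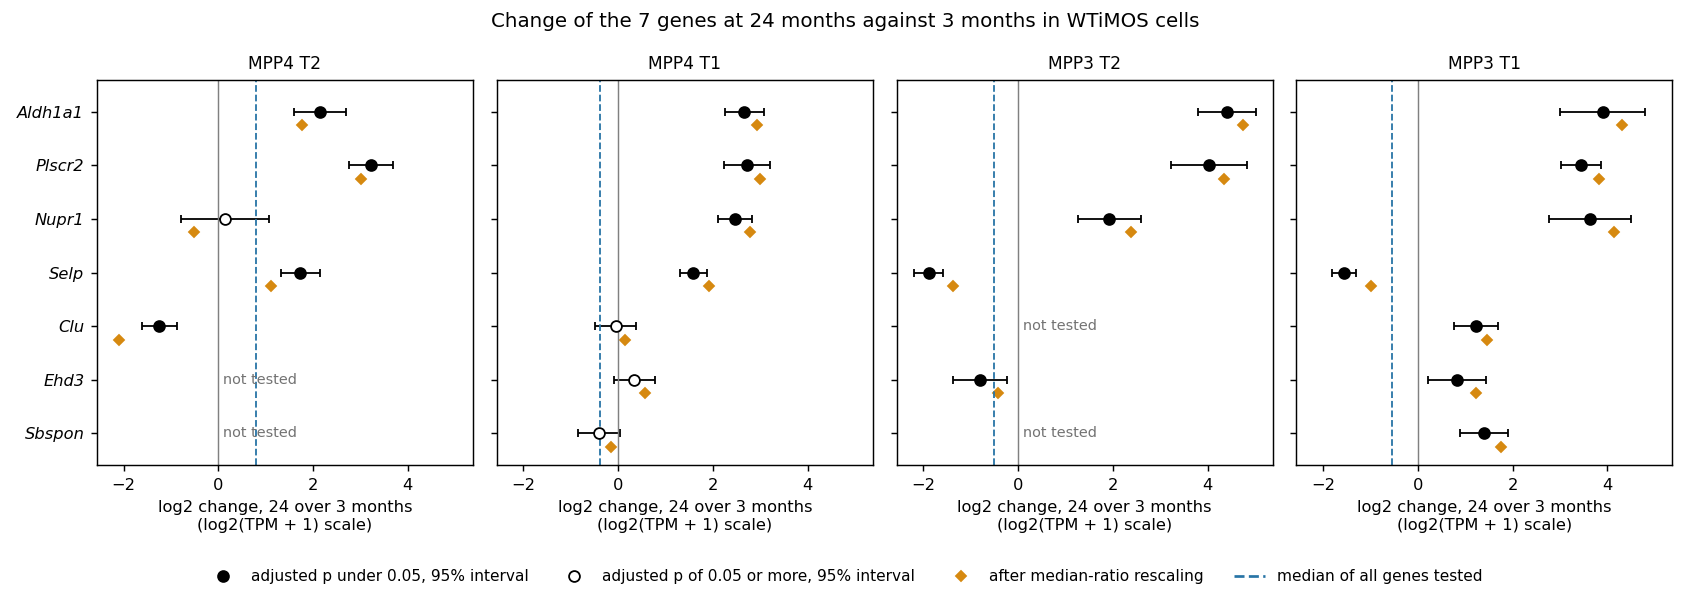
Change with age of each member in the 4 comparisons, as the difference of log2(TPM + 1) between 24 and 3 months, with 95% intervals from limma; filled points are called at an adjusted p under 0.05, orange diamonds give the value after median-ratio rescaling and the dashed line is the median of all genes tested. Aldh1a1 and Plscr2 lie between 2.15 and 4.41 in every panel, and Selp lies at -1.89 and -1.56 in MPP3 and at 1.73 and 1.58 in MPP4.

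The 4 age comparisons share no libraries, so being called higher in all 4 could be counted over the tables. T2 and T1 cells of a cell type were in the same tables, however, so the 4 are not independent results. Of 10676 genes tested in all 4, 73 were called higher in each, or 0.684%, and after rescaling 61 of 10766, or 0.567%. Of the 4 members tested in all 4, Aldh1a1 and Plscr2 were among them on both scales. Plscr2 in MPP3 T1 and MPP4 T2 cells, and Aldh1a1 in MPP4 T1 cells, met the filter only through their 24-month libraries. The members were also chosen with earlier results of these data known, so their places here are only a description. Ordered by the smallest of a gene's 4 changes as deposited, Plscr2 had place 3 (2.72) and Aldh1a1 place 5 (2.15). The other genes with at least 2 in all 4 comparisons were H2-Eb1, Bmpr1a, Aspa, H2-Aa, H2-Ab1 and Mrgpra2a. H2-Eb1, H2-Aa and H2-Ab1 encode chains of MHC class II, Bmpr1a a receptor of bone morphogenetic proteins, Aspa an enzyme that splits N-acetylaspartate, and Mrgpra2a a G protein-coupled receptor. They were named after their values were seen. After rescaling Plscr2 had place 1 (3.00) and Aldh1a1 place 7 (1.77), and the 5 genes with at least 2 were Plscr2, Aspa, Bmpr1a, Mrgpra2a and Mrgpra2b, while H2-Eb1 (1.94), H2-Ab1 (1.49) and H2-Aa (1.18) were below.

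Whether the age change of a member differed between T2 and T1 cells was tested as the difference of both changes. In MPP3 this difference was called for 2 of 7 members, where 15.2% of all genes were called: Ehd3 (-1.62, adjusted p = 0.0105) and Sbspon (-1.50, adjusted p = 0.0111), both lower in T2 cells. Aldh1a1 (0.51, adjusted p = 0.594), Plscr2 (0.59, adjusted p = 0.414) and Selp (-0.32, adjusted p = 0.234) were not called in MPP3. Nupr1 differed by -1.70 and missed the threshold (adjusted p = 0.0587), but was called at -1.76 after rescaling (adjusted p = 0.0445). Without replicate 3 of the 3-month T2 libraries Plscr2 (1.08, adjusted p = 0.0263) and Clu (-1.56, adjusted p = 0.0143) were called as well. In MPP4 it was called for 3 of 7 members, where 83.8% of all genes were called, most of them with a positive difference. Nupr1 (-2.32, adjusted p = 0.000422) and Clu (-1.19, adjusted p = 0.000320) went against that direction, and Sbspon (0.65, adjusted p = 0.0428) was at -0.13 after rescaling and lost its call in 9 of 12 fits that left out a library. The rise of Nupr1 with age was thus smaller in T2 than in T1 cells of MPP4. Selp differed by 0.15 between T2 and T1 cells of MPP4 (adjusted p = 0.527), but by -0.80 after rescaling (adjusted p = 0.00751).

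Whether the age change differed between MPP4 and MPP3 was tested in the same way. In T2 cells it was called for 5 of 6 members tested, where 77% of all genes were called, and in T1 cells for 6 of 7, where 71% were. Selp had the largest difference of the members, 3.62 in T2 cells (adjusted p = 1.40e-10) and 3.15 in T1 cells (adjusted p = 2.41e-10). On the log2(TPM + 1) scale the rise of Aldh1a1 was smaller in MPP4 than in MPP3. The difference was -2.26 in T2 cells (adjusted p = 9.06e-05, or 0.129 with a pseudocount of 0.1) and -1.24 in T1 cells (adjusted p = 0.0348). In MPP4 T1 cells the means were 6.78 TPM at 24 months and 0.237 TPM at 3 months, and in MPP3 T1 cells 22.7 and 0.842 TPM. The linear rise given above was thus not smaller in MPP4 T1 cells, and the T1 difference depends on the scale. Plscr2 differed by -0.81 in T2 cells (adjusted p = 0.123) and by -0.72 in T1 cells (adjusted p = 0.0454), and Nupr1 by -1.78 in T2 cells (adjusted p = 0.0121) and by -1.16 in T1 cells (adjusted p = 0.0328). The T1 calls of Aldh1a1, Plscr2 and Nupr1 were near the threshold and were lost in 8, 9 and 8 of the 12 fits that left out a library, and with a pseudocount of 0.1. Clu differed by -1.31 in T2 cells (adjusted p = 0.0101) and by -1.28 in T1 cells (adjusted p = 0.000666), while Ehd3 differed by 1.31 in T2 cells (adjusted p = 0.00139; 0.0526 after rescaling) and by -0.48 in T1 cells (adjusted p = 0.243). Sbspon differed by -1.80 in T1 cells (adjusted p = 8.80e-05).

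T2 and T1 cells of a group were in the same table, so that age and genotype label do not enter their comparison, which shares its libraries with the age comparisons. Sex does enter it: the Y-linked sums given above were high in T2 and at or near 0 in T1 libraries of MPP3 at 24 months and of MPP4 at both ages, while Xist, the RNA of the inactive X, averaged 20.4 TPM in T2 and 69.2 TPM in T1 cells of MPP3 at 24 months, 29.4 TPM in T2 and 67.9 TPM in T1 cells of MPP4 at 24 months, and 22.8 TPM in T2 and 97.0 TPM in T1 cells of MPP4 at 3 months. In these 3 tables sex cannot be told apart from T2 and T1. At 24 months in MPP3, 5 of 7 members were called, where 42% of all genes were: Aldh1a1 was higher in T2 cells by 0.89 (adjusted p = 0.000762) and Plscr2 by 1.15 (adjusted p = 0.000175), while Nupr1 (-0.79, adjusted p = 0.00771), Ehd3 (-0.78, adjusted p = 0.00547) and Sbspon (-1.62, adjusted p = 9.00e-05) were lower. The Nupr1 call was lost in a fit of all 30 libraries with table weights (adjusted p = 0.0845). The 24-month T2 and T1 libraries of MPP3 overlapped in none of these 5 genes, and Sbspon met the filter there only through the T1 libraries. At 24 months in MPP4, 4 of 7 were called, where 65.2% were: Selp (-1.20, adjusted p = 7.56e-05), Nupr1 (-2.24, adjusted p = 0.000372) and Ehd3 (-0.64, adjusted p = 0.0200) were lower in T2 cells, and Clu was higher by 0.88 (adjusted p = 0.00179). Ehd3 met the filter only through the T1 libraries, and without replicate 1 of T2 cells its value was -0.51 (adjusted p = 0.0745). Aldh1a1 (-0.30, adjusted p = 0.109) and Plscr2 (-0.01, adjusted p = 0.969) were not called in MPP4, though after rescaling Aldh1a1 was at -0.67 (adjusted p = 0.00743).

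At 3 months fewer members were tested and called between T2 and T1 cells of MPP3. In WTiMOS MPP3, 1 of 4 members tested was called, where 14.3% of all genes were: Selp was higher in T2 cells by 0.51 (adjusted p = 0.0143), at 0.39 after rescaling (adjusted p = 0.0564), and this call was lost without replicate 1 or 2 of T1 or replicate 2 of T2 cells. In KOiMOS MPP3, 2 of 5 were called, where 36.4% were. Aldh1a1 had 3.20, 3.85 and 2.41 TPM in T2 cells, against 0.537, 0.141 and 0.398 TPM in T1 cells, a difference of 1.61 (adjusted p = 1.66e-05) with no overlap. It was tested only because of the T2 libraries: without any 1 of the KOiMOS T2 libraries Aldh1a1 no longer met the filter of 1 TPM in 3 libraries. Selp had 37.4, 46.8 and 42.0 TPM in T2 cells, against 34.7, 33.9 and 33.4 TPM in T1 cells, a difference of 0.29 (adjusted p = 0.0106). In MPP4, 3 of 4 members tested were called, where 81.3% of all genes were and the median gene was at -0.74: Selp at -1.35 (adjusted p = 1.02e-05), Clu at 2.07 (adjusted p = 1.39e-07) and Sbspon at -0.92 (adjusted p = 0.000971), the last tested only through its T1 libraries and not called after rescaling (-0.41, adjusted p = 0.145). Clu, at 8.06 to 8.68 TPM in T2 and 0.839 to 1.75 TPM in T1 cells, thus went against the shift of all genes. The called genes of that table turned to 3292 higher and 2559 lower on rescaling, against 983 and 8193 before.

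KOiMOS and WTiMOS libraries could be compared in MPP3 at 3 months. The direction rests on labels that Bcl11a RNA did not mark. Y-linked genes summed to 57.2 TPM in KOiMOS and 43.6 TPM in WTiMOS T2 cells, and to 111.5 and 73.2 TPM in T1 cells. Xist was lower in KOiMOS, by 0.34 in T2 (limma, adjusted p = 0.0275) and by 0.44 in T1 cells (adjusted p = 0.00267). The part of sex in these comparisons was not tested. In T2 cells 4 of 5 members tested were called, where 54.8% of all genes were, and in T1 cells 3 of 4, where 66.3% were. Selp was lower in KOiMOS cells in both, with differences of -0.79 in T2 cells (adjusted p = 0.000517) and -0.58 in T1 cells (adjusted p = 8.78e-05). Clu had 5.18, 5.66 and 2.03 TPM in KOiMOS T2 cells, against 1.90, 0.856 and 0 TPM in WTiMOS T2 cells, and 3.90, 3.49 and 4.75 TPM in KOiMOS T1 cells, against 0, 0.147 and 0 TPM in WTiMOS T1 cells. It was higher in KOiMOS libraries without overlap in both, by 1.51 in T2 cells (adjusted p = 0.0157) and by 2.26 in T1 cells (adjusted p = 7.44e-06). In T1 cells it met the filter only through the KOiMOS libraries, and in T2 cells through these and 1 WTiMOS library, so these calls add nothing to the values.

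Further members differed between the genotype labels in one of the cell states. Ehd3 had 0.686, 1.11 and 0.473 TPM in KOiMOS T2 cells, against 3.60, 2.55 and 3.61 TPM in WTiMOS T2 cells, a difference of -1.28 (adjusted p = 0.00178), with 1 KOiMOS library at 1 TPM or more. Aldh1a1 was higher in KOiMOS T2 cells by 1.0 (adjusted p = 0.0274). Without replicate 1 of the KOiMOS T2 libraries the adjusted p was 0.0859 for Aldh1a1 and 0.0602 for Clu, and without replicate 2 it was 0.114 and 0.0704, so both calls depend on single libraries. With no filter they were lost as well (adjusted p = 0.0625 and 0.0508). Nupr1 had 5.90, 6.59 and 5.37 TPM in KOiMOS T1 cells, against 2.29, 1.02 and 5.49 TPM in WTiMOS T1 cells, which overlapped. Its difference of 0.98 (adjusted p = 0.0376) was lost on rescaling (adjusted p = 0.0625) and in 5 of 6 fits that left out a library (adjusted p up to 0.102). Sums of the 8 platelet markers were 180 TPM in KOiMOS and 113 TPM in WTiMOS T2 cells, and 148 TPM in KOiMOS and 43.6 TPM in WTiMOS T1 cells. Sums of the 7 macrophage markers were 139 TPM in KOiMOS and 107 TPM in WTiMOS T2 cells, and 95.8 TPM in KOiMOS and 44.1 TPM in WTiMOS T1 cells. The 7 endothelial markers summed to 47.7 TPM in KOiMOS and 37.7 TPM in WTiMOS T2 cells, and to 44.5 TPM in KOiMOS and 12.4 TPM in WTiMOS T1 cells, where Selp was lower in KOiMOS. The 5 erythroid markers summed to 512 TPM in KOiMOS and 97.7 TPM in WTiMOS T2 cells, and to 58.1 TPM in KOiMOS and 8.45 TPM in WTiMOS T1 cells. The 5 B and plasma cell markers went the other way, with 3.6 TPM in KOiMOS and 31.0 TPM in WTiMOS T2 cells, and 36.2 TPM in KOiMOS and 223 TPM in WTiMOS T1 cells. The part of these cells in the differences of the members was not tested.

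Likeness to other genes was measured as Pearson's r of group mean log2(TPM + 1) over the 10 groups, among 10090 genes, and is given as a description, since groups of a table share their handling. The gene most like Aldh1a1 was Plscr2 (r = 0.951), before Tnfaip2 (0.926) and Aspa (0.911), and the genes most like Plscr2 were Aspa (0.965), Aldh1a1 (0.951) and Tnfaip2 (0.913). The pattern nearest to Selp was that of Mir425 (0.962), Emilin2 (0.954) and Csgalnact1 (0.946), each highest in MPP3 T2 and lowest in MPP4 T2 cells of 3 months. Nupr1 was most like Clec4a3 (0.939), Cd59a (0.902) and Mcpt8 (0.874), and Mcpt8, a protease of basophils, reached 299 TPM in MPP3 T1 cells of 24 months. Clu was most like Atad3aos (0.877), Dennd5b (0.873) and Rab26os (0.863). Among the members r was 0.83 between Aldh1a1 and Nupr1 and 0.75 between Plscr2 and Nupr1, 0.06 between Aldh1a1 and Selp, 0.65 between Selp and Ehd3 and -0.66 between Clu and Ehd3. The 7 genes did not share 1 pattern over the groups.

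A second list held 29 other genes that are named in signatures of stem cell ageing. In MPP3 T2 cells 5 of 17 tested were called higher and 3 lower, with a median change of -0.17, and in MPP3 T1 cells 8 of 17 were higher and 5 lower, with a median of 0.24. In MPP4 T2 cells 10 of 14 were higher and 1 lower, with a median of 0.76, and in MPP4 T1 cells 5 of 15 were higher and 7 lower, with a median of -0.11. Medians of all genes were -0.51, -0.55, 0.79 and -0.37 in these comparisons. The share called higher in MPP4 T2 cells was close to the 72.6% of all genes called higher there, while 24.3%, 26.3% and 7.18% of all genes were called higher, and 50.4%, 54.3% and 55.4% lower, in MPP3 T2, MPP3 T1 and MPP4 T1 cells. After rescaling 7 of 17 were higher and 3 lower in MPP3 T2 cells, 13 of 20 and 4 in MPP3 T1 cells, 3 of 14 and 3 in MPP4 T2 cells, and 5 of 16 and 1 in MPP4 T1 cells, with medians of 0.11, 1.24, 0.18 and 0.33. On that scale 4127 of 11655 genes tested were higher and 4413 lower in MPP3 T2, and 4610 of 11733 and 4805 in MPP3 T1 cells. In MPP4 they were 2349 of 11511 and 3090 in T2, and 2164 of 11385 and 2030 in T1 cells. Medians of all genes were then -0.045, -0.012, -0.030 and -0.046. Cpne8, a calcium-binding copine, was called higher in all 4 on both scales, by 2.65, 1.68, 1.57 and 1.12, with 7.62, 2.92, 7.77 and 5.31 TPM at 24 months and 0.372, 0.206, 1.99 and 2.0 TPM at 3 months in MPP3 T2, MPP3 T1, MPP4 T2 and MPP4 T1 cells.

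Called genes of that list varied between the comparisons. Mt1, a metallothionein that binds zinc and copper, rose by 2.63 in MPP3 T2 cells, 3.08 in MPP3 T1 cells and 2.0 in MPP4 T1 cells (adjusted p = 1.01e-06, 2.19e-11 and 3.06e-08). MPP4 T2 cells had 49.2 TPM of Mt1 at 24 months and 52.5 TPM at 3 months, and a rise was not called (-0.11, adjusted p = 0.503), while after rescaling it was lower there (-1.06). Krt18, an intermediate filament keratin, fell in MPP3 T2 (-1.54), MPP3 T1 (-3.37) and MPP4 T1 cells (-1.17) and rose in MPP4 T2 cells (1.95), with the same signs and calls after rescaling. In MPP3, Clca3a1, a secreted glycoprotein, rose by 2.48 and Wwtr1, a coactivator of the Hippo pathway, by 2.11 in T1 cells, and Alcam, an adhesion molecule, rose by 1.10 in T2 cells. Enpp5, an ectonucleotide pyrophosphatase family member, fell by 2.08 and by 1.42 on the log2 scale in MPP3 T2 and T1 cells, Sult1a1, a sulfotransferase, fell by 2.02 in MPP3 T2 cells, and Gpr183, an oxysterol receptor, fell by 0.92 in MPP3 T1 cells. In MPP4, Fyb, an adaptor of adhesion signalling, rose by 1.31 in T2 cells and fell by 0.51 in T1 cells, and Itgb3, the integrin beta chain of platelets, rose by 0.96 in T1 cells. Cyyr1 rose by 1.18 and Alcam fell by 0.71 in MPP4 T1 cells, and Ramp2, a receptor modifying protein, fell by 0.76 in MPP4 T2 cells. Of these, the falls of Fyb and Alcam in MPP4 T1 cells were not called after rescaling (-0.15 and -0.36).

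**Figure D3:**
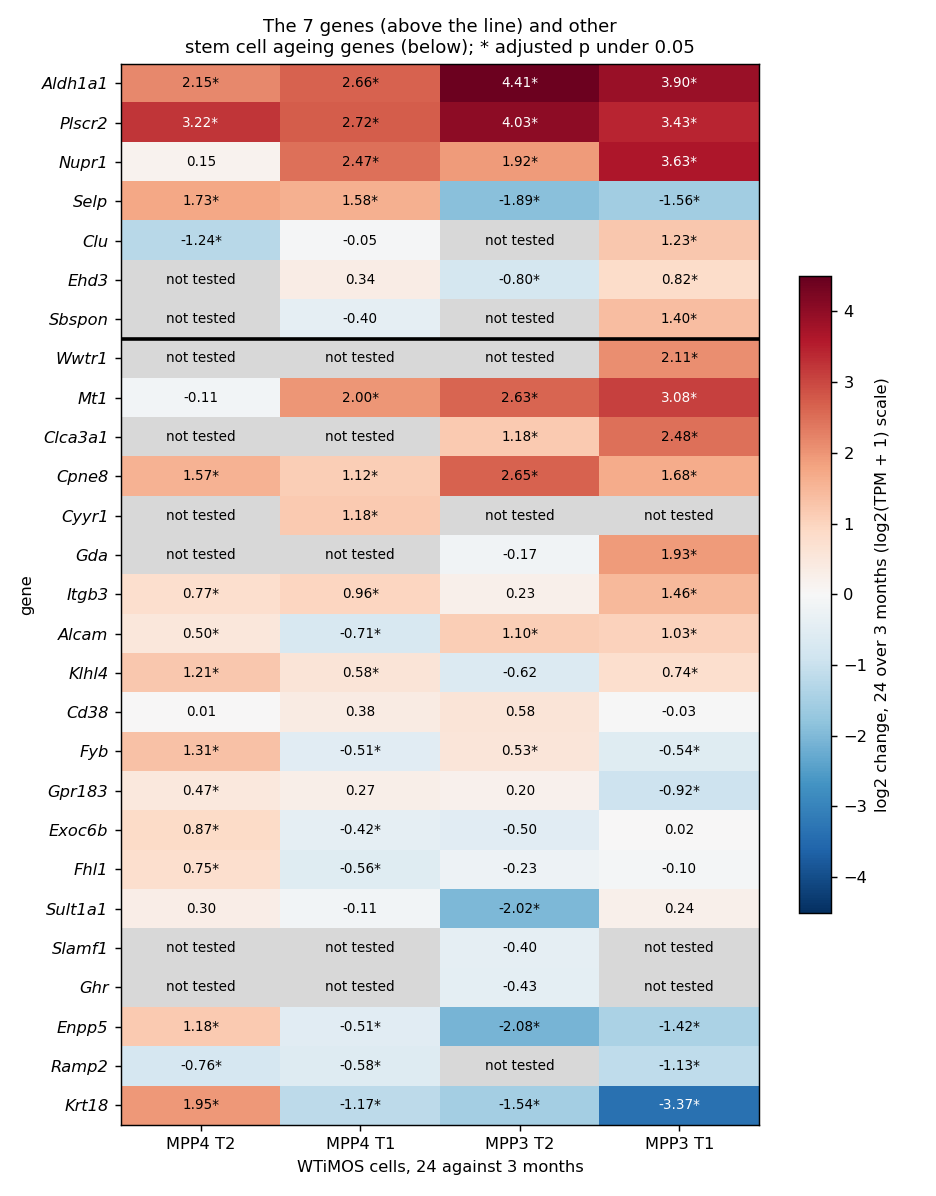
Heat map of the change with age, as the difference of log2(TPM + 1) between 24 and 3 months, for the 7 members and the 20 other stem cell ageing genes tested in at least 1 of the 4 comparisons; an asterisk marks an adjusted p under 0.05 in limma and empty cells were not tested. Aldh1a1, Plscr2 and Cpne8 are higher and called in all 4 columns, and Selp and Krt18 change sign between columns.

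Relatives and partners of the members, such as other genes of the same families, were counted in the same way. Of 13 genes considered, 8 were tested in each comparison. The numbers called higher and lower were 0 and 7 in MPP3 T2, 1 and 7 in MPP3 T1, 7 and 0 in MPP4 T2 and 1 and 5 in MPP4 T1 cells, with medians of -1.68, -1.82, 1.47 and -0.61. Among all genes 24.3% were called higher and 50.4% lower in MPP3 T2, 26.3% and 54.3% in MPP3 T1, 72.6% and 8.33% in MPP4 T2, and 7.18% and 55.4% in MPP4 T1 cells, so that most of these genes went the way of the tables. After rescaling the counts were 0 and 6, 1 and 6, 5 and 1, and 1 and 4, with medians of -1.15, -1.27, 0.68 and -0.30. All genes then numbered 4127 higher and 4413 lower of 11655 in MPP3 T2, and 4610 and 4805 of 11733 in MPP3 T1 cells. For MPP4 the numbers were 2349 and 3090 of 11511 in T2, and 2164 and 2030 of 11385 in T1 cells. Aldh2, the mitochondrial aldehyde dehydrogenase, had 16.0 TPM at 24 months and 239 TPM at 3 months in MPP3 T2 cells and 4.86 TPM at 24 months and 262 TPM at 3 months in MPP3 T1 cells, and changed by -3.82 and -5.49, where Aldh1a1 rose. In MPP4 it changed by 2.43 in T2 and -1.59 in T1 cells. Plscr1, an interferon-induced scramblase, changed by -1.47 in MPP3 T2, -1.13 in MPP3 T1, 1.71 in MPP4 T2 and 0.40 in MPP4 T1 cells, and Plscr3 by -1.88, -2.55, 0.70 and -0.70, all called, where Plscr2 rose throughout. On rescaling Plscr3 turned to -0.24 in MPP4 T2 cells, not called.

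Selplg, the gene of the ligand of P-selectin, had 42.3 TPM at 24 months and 214 TPM at 3 months in MPP3 T2 cells (-2.34), and 71.4 TPM at 24 months and 270.3 TPM at 3 months in MPP3 T1 cells (-1.91). It had 99.7 TPM at 24 months and 28.7 TPM at 3 months in MPP4 T2 cells (1.74), and 95.8 TPM at 24 months and 112 TPM at 3 months in MPP4 T1 cells (-0.22, adjusted p = 0.0819; 0.15 after rescaling, not called). Selp and Selplg were therefore both lower with age in MPP3 and both higher in MPP4 T2 cells, in the direction of the median gene of those comparisons. In MPP4 T1 cells, where the median gene was lower, Selp was higher. Ehd1 and Ehd4, trafficking proteins of the Ehd3 family, changed by -1.37 and -2.22 in MPP3 T2, -1.73 and -2.86 in MPP3 T1, 1.22 and 1.87 in MPP4 T2 and -0.85 and -0.64 in MPP4 T1 cells. Plscr4 rose in MPP3 T1 (0.68) and MPP4 T2 cells (1.19, but 0.41 and not called after rescaling), and Nupr1l, a relative of Nupr1, was lower in MPP3 T2 (-0.60), MPP3 T1 (-0.90) and MPP4 T1 cells (-0.57), none of which was called after rescaling.

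Markers of old or other cells moved with age as well. The 8 stem cell markers summed to 655 TPM at 24 months and 538 TPM at 3 months in MPP3 T2 libraries, and to 1044 TPM at 24 months and 363 TPM at 3 months in MPP3 T1 libraries, led by Ly6a with 1023 TPM at 24 months and 135 TPM at 3 months. In MPP4 they summed to 764 TPM at 24 months and 875 TPM at 3 months in T2 libraries and to 1515 TPM at 24 months and 797 TPM at 3 months in T1 libraries. The summed MPP3 markers were 1777 TPM at 24 months and 7227 TPM at 3 months in MPP3 T2 libraries. They were 8047 TPM at 24 months and 7866 TPM at 3 months in MPP3 T1 libraries. The near-equal T1 sums join genes that moved opposite ways. Mpo averaged 195 TPM at 24 months and 2190 TPM at 3 months there, and Prtn3 1235 and 1721 TPM. Ctsg averaged 3278 TPM at 24 months and 945 TPM at 3 months, and Elane 3340 and 3011 TPM. The sums were 826 TPM at 24 months and 407 TPM at 3 months in MPP4 T2 libraries. In MPP4 T1 libraries they were 1911 TPM at 24 months and 723 TPM at 3 months. Ctsg made up most of that T1 rise, with 1248 TPM at 24 months and 264 TPM at 3 months. Prtn3 averaged 548 and 344 TPM, Mpo 63.15 and 58.8 TPM, and Elane 52.0 and 56.2 TPM at these ages. Jchain, a gene of antibody-secreting cells, averaged 2577 TPM in MPP3 T2 cells of 24 months, where Aldh1a1 and Plscr2 were highest. The part of any change in the mix of cells in the results on the 7 genes was not tested.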

How the data were processed

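Total RNA of sorted mouse bone marrow MPP3 and MPP4 cells was turned into amplified cDNA with a low-input kit, per the labels' protocols. The authors deposited TPM in 5 tables of 24421 genes, and HISAT2, StringTie, featureCounts, DESeq2 and mm10 are named in the submitters' processing notes without versions or roles. Whether reads were shared out between near-identical genes was not stated. Each of the 30 columns was matched to a sample by its title, and 0 columns were left unmapped. TPM sum to the same total in every library, so depth is unknown and no counting error can be given.

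From these TPM, log2(TPM + 1) was modelled with limma 3.58.1 (R 4.3.3) by group means, using only the libraries compared, variance moderated robustly with an abundance trend, and genes that reached 1 TPM in at least 3 of those libraries. Adjusted p is Benjamini-Hochberg over all genes of a comparison, and calls were made at 0.05. The fit was tested on simulated data. Alternatives were a pseudocount of 0.1, dropping the filter, rescaling by median ratios, fitting all 30 libraries with table weights, a block for the replicate number and leaving out single libraries. Correction for GC content and length, which 95.7% of genes had, was added after the data were seen. Replicate numbers were not taken as pairs, since same-numbered libraries of compared groups correlated at only -0.197 to 0.148 in their deviations.

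The 7 members and all lists were chosen with earlier results of these data known. Besides the members, the text names the 3 called genes of smallest p in each direction of the other ageing list in each age comparison, called relatives and partners, the 3 genes most like each member that reached 5 TPM in a group, and genes that lead a marker list. Positions are from GENCODE vM21 on GRCm38. Of the 7 members, 4 matched RefSeq's promoter table. A gene that is not reported here was left out of the list of relatives and partners.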

Additional observations from a re-analysis of the deposited data

Results flagged for a closer look

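The changes of 16 gene and comparison pairs differed between cells under the same contrast of 24 against 3 months, by limma's test of the difference itself on the log2(TPM + 1) scale with Benjamini-Hochberg adjustment. Between T2 and T1 cells of MPP3 the differences were -1.62 for Ehd3 (adjusted p = 0.0105) and -1.495 for Sbspon (adjusted p = 0.0111). Between T2 and T1 cells of MPP4 they were -1.19 for Clu (adjusted p = 0.000320), -2.32 for Nupr1 (adjusted p = 0.000422) and 0.65 for Sbspon (adjusted p = 0.0428).

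Between MPP4 and MPP3 in T2 cells they were -2.26 for Aldh1a1 (adjusted p = 9.06e-05), 3.62 for Selp (adjusted p = 1.40e-10), -1.31 for Clu (adjusted p = 0.0101), -1.78 for Nupr1 (adjusted p = 0.0121) and 1.31 for Ehd3 (adjusted p = 0.00139). Between MPP4 and MPP3 in T1 cells they were -1.24 for Aldh1a1 (adjusted p = 0.0348), -0.72 for Plscr2 (adjusted p = 0.0454), 3.15 for Selp (adjusted p = 2.41e-10), -1.28 for Clu (adjusted p = 0.000666), -1.16 for Nupr1 (adjusted p = 0.0328) and -1.80 for Sbspon (adjusted p = 8.80e-05). Each age and cell type was in a table of its own, so the differences between cell types cannot be told apart from differences between tables.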

How the results depend on the processing

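Aldh1a1, Plscr2 and Selp kept the sign and the call of their age changes under all alternatives that gave them a value, with log2 changes of 1.77 to 5.83 for Aldh1a1, 2.44 to 5.90 for Plscr2, -1.96 to -0.88 for Selp in MPP3 and 1.12 to 2.35 for Selp in MPP4. Only 3 fits that left out a library gave a value for Plscr2 in MPP3 T1 and MPP4 T2 and for Aldh1a1 in MPP4 T1 cells. Without a 24-month library these genes no longer met the filter, so such fits could not show a lost call. Rescaling moved the number of genes called with age to 4194 in MPP4 T1 (7095 with TPM as deposited) and 5439 in MPP4 T2 cells (9128 as deposited), in the difference of MPP4 T2 and T1 age changes to 5605 (9880), and in T2 against T1 cells of MPP4 to 3909 at 24 months (7407) and 5851 at 3 months (9176). With no filter 1056 genes were called in WTiMOS MPP3 of 3 months (1682 with it). The members called in the difference of MPP4 and MPP3 age changes were 3 in T1 cells with a pseudocount of 0.1 and 3 with no filter (6 in the test as reported), and 3 in T2 cells with a pseudocount of 0.1 (5 in the test as reported). In T2 against T1 cells of WTiMOS MPP3 at 3 months limma called 0 of 4 members after rescaling, where Selp had been called (0.39, adjusted p = 0.0564), and in KOiMOS against WTiMOS T2 cells 2 with no filter (4 with it).

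Signs turned on rescaling for Clu in MPP4 T1 (0.15) and Nupr1 in MPP4 T2 cells (-0.51) with age, for Selp (-0.80), Ehd3 (-0.22) and Sbspon (-0.13) in the difference of MPP4 T2 and T1 age changes, for Clu in KOiMOS T2 against T1 (0.025) and for Nupr1 in KOiMOS against WTiMOS T2 cells (-0.0023). Removal of GC content and length trends turned Clu in MPP4 T1 (0.014), Nupr1 in MPP4 T2 (-0.095), Selp (-0.25) and Ehd3 (-0.24) in the MPP4 difference, Plscr2 in the T2 difference of MPP4 and MPP3 (0.044) and Plscr2 in T2 against T1 cells of MPP4 at 24 months (0.16). A pseudocount of 0.1 turned Plscr2 in the T2 difference of MPP4 and MPP3 (0.82) and Aldh1a1 in the T2 and T1 difference of MPP3 (-0.44). The cause of these turns was not tested.

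Leaving out 1 library at a time gave 1166 to 1962 genes called in the T2 and T1 difference of MPP3 and 933 to 2197 in T2 against T1 cells of WTiMOS MPP3 at 3 months. Members called ranged over 4 to 7 in MPP3 T1 with age, 2 to 4 in the T2 and T1 difference of MPP3, 3 to 6 in the T1 difference of MPP4 and MPP3, 1 to 2 in KOiMOS T2 against T1, 0 to 1 in WTiMOS MPP3 T2 against T1 at 3 months, 1 to 3 in KOiMOS against WTiMOS T1 and 2 to 4 in KOiMOS against WTiMOS T2 cells. Values that changed sign ranged over -0.19 to 0.10 for Clu in MPP4 T1 and -0.27 to 0.50 for Nupr1 in MPP4 T2 cells with age, and -0.044 to 0.83 for Aldh1a1 in the T2 and T1 difference of MPP3. They ranged over -0.21 to 0.35 for Clu and -0.14 to 0.015 for Nupr1 in KOiMOS T2 against T1, -0.27 to 0.26 for Nupr1 and -0.19 to 0.17 for Plscr2 in T2 against T1 cells of MPP4 at 3 and 24 months, -0.35 to 0.27 for Ehd3 in KOiMOS against WTiMOS T1 and -0.29 to 0.39 for Nupr1 in KOiMOS against WTiMOS T2 cells.

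The replicate block ended the calls of Aldh1a1 (adjusted p = 0.0571) and Plscr2 (adjusted p = 0.0504) in the T1 difference of MPP4 and MPP3 and no other member's call, and moved no count of genes by over 1.5 times. With 3 libraries a group, unknown depth and Clu, Ehd3 and Sbspon near 1 TPM in many groups, small differences of those genes could not be resolved there.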
